A study of Mus musculus with 26 samples.

Results

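Amhr2+ cells were compared with Gli1+ cells of the neonatal mouse uterus across all genes of one RNA-seq table. The 6 libraries, 3 of each population, were chosen by their sample titles out of 26 samples in the series. The other samples were RNA-seq and open-chromatin libraries of Gli1+ cells from fetal mesonephroi, the embryonic organs that carry the precursors of the male and female tracts. Amhr2+ cells came from Amhr2-Cre; Rosa-Tomato females, in which Cre is driven by Amhr2 and turns on a red fluorescent reporter for good in each cell that makes it and in its descendants. Gli1+ cells came from Gli1-CreER; Rosa-Tomato females, in which the recombinase acts only in the presence of tamoxifen. Per the labels, dams of both lines received 1 mg of tamoxifen into the peritoneum on E12.5 and again on E13.5. Uteri were taken at E19.5, which the labels call neonatal, dissociated with the enzyme mix TrypLE and sorted. Strain background, pooling of animals and sorting gates are not given in the sources used here. Since each population came from its own mouse line, the line, the timing of its recombinase and the population cannot be told apart. The labels also do not say whether replicates were separate animals, so p-values measure the spread between these samples, which may be technical.

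The uterus forms from the Müllerian duct, an epithelial tube wrapped in mesenchyme. Amhr2 encodes the receptor for anti-Müllerian hormone, the signal that removes this duct in males, and is made in the mesenchyme next to the duct epithelium. Gli1 encodes a transcription factor that is itself switched on by hedgehog signalling, so it marks cells that receive hedgehog ligand. The labelled uterine mesenchyme goes on to form the stroma and the smooth muscle of the organ.

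The 2 genes that define the populations differed in the direction of their labels, but neither was restricted to its own population. Amhr2 (chromosome 15, 102445367 to 102454633) had 10.3, 7.25 and 15.8 CPM (counts scaled to a library of 1000000) in the 3 Amhr2+ libraries and 3.72, 5.23 and 3.35 CPM in the 3 Gli1+ libraries, with no overlap. Its level was higher by 1.43 ± 0.30 on the log2 scale (SE, adjusted p = 0.0124). All adjusted p-values are from the quasi-likelihood test of edgeR with Benjamini-Hochberg adjustment over every gene tested, and a gene was called when its value was below 0.05. Gli1 (chromosome 10, 127329882 to 127341974) had 11.8, 12.3 and 7.53 CPM in Amhr2+ and 16.2, 21.2 and 16.3 CPM in Gli1+ libraries, again with no overlap. It was lower in Amhr2+ cells by a log2 fold change of -0.76 ± 0.19 (adjusted p = 0.0261). Neither call held in all alternatives. The call for Amhr2 was lost without Gli1+ replicate 1 and with the replicate number as a block, and that for Gli1 without Amhr2+ replicate 1, Gli1+ replicate 1 or Gli1+ replicate 2, with adjusted p-values of at most 0.0518 and 0.0698 over all alternatives. The reporter records a past event in each lineage, whereas these values are RNA at E19.5. Gli1 also overlaps Arhgap9 in the table, and whether reads were assigned by strand is not given in the sources used here. Coordinates throughout are on mm10.

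Library totals lay between 28709191 and 37541045 counts. The first principal component held 65.03% of the variance and separated the populations. Xist was at 2616 to 3920 CPM and 4 Y-linked genes had 0 counts in all 6 libraries, as the female label requires. Amhr2+ replicates 1 and 2 were the most alike, with 19.8% of genes beyond the 95% limit of sampling noise against 36.7% to 53.0% for other pairs of one population, and were kept as separate samples.

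Of 16195 genes tested, 3866 (23.9%) were called, of which 1642 (10.1% of genes tested) were higher and 2224 (13.7%) were lower in Amhr2+ cells. The median log2 fold change over all tested genes was 0.00 with this scaling. Scaled by library size alone, 2849 genes were called higher and 1640 lower, so that 63.5% of calls were higher instead of 42.5%. The imbalance of small changes thus depended on the scaling, while that of large changes held under both. At least 4-fold, 35 genes were called higher and 250 lower, and with library size only 42 and 230. At least 8-fold, 2 genes were higher and 84 lower. The number of calls also moved with single libraries: 1949 genes were called without Amhr2+ replicate 1 and 2521 without Gli1+ replicate 1. A set of 1809 genes was called in the same direction whichever library was left out, 640 higher and 1169 lower. In a comparison of whole populations, a smaller share of cells of some type and less RNA per cell cannot be told apart.

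**Figure D1:**
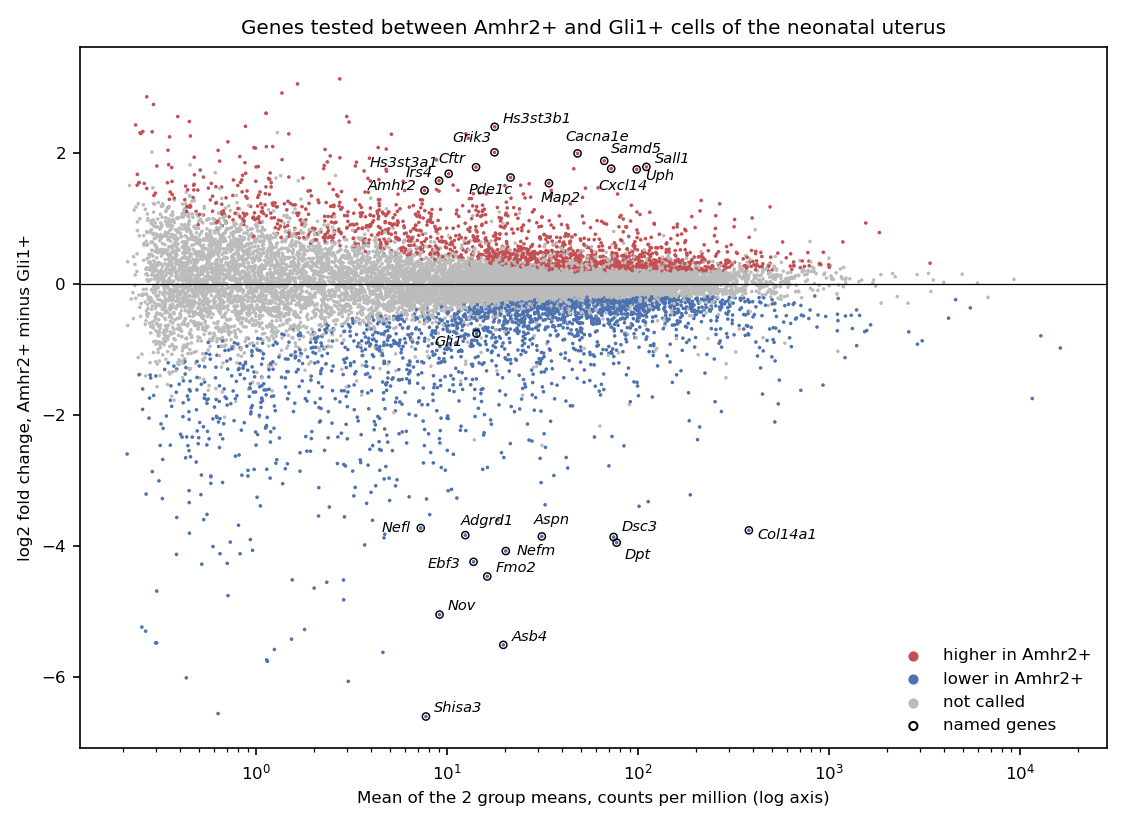
Each point is a gene tested, with the mean of the 2 group means in CPM on a log axis across and the log2 fold change, Amhr2+ minus Gli1+, upward. Red points were called higher in Amhr2+ cells, blue points lower and grey points not called. The cloud reaches much further down than up: 250 genes were called at least 4-fold lower and 35 at least 4-fold higher.

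The genes that separated the populations most were lower in Amhr2+ cells, some of them with few reads there and others, such as Col14a1, still well detected. By the naming rule, 12 genes were taken in each direction, from 835 lower and 459 higher genes that passed it. The rule asked for 10 CPM or more on average in the population with more RNA, no overlap between populations and a call that held whichever library was left out. These conditions fix in advance the lack of overlap and the result of leaving out libraries. Of all 3866 called genes, 3862 did not overlap. In the other 7 alternative analyses, which the rule did not use, all 24 also kept their direction and their call.

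Shisa3 (chromosome 5, 67607882 to 67613992), of a family of transmembrane adaptor proteins, had 0.104, 0.108 and 0.271 CPM in Amhr2+ cells, which are 4, 4 and 8 reads. The Gli1+ libraries held 12.3, 19.7 and 13.9 CPM. Its log2 fold change was -6.61 ± 0.33 (fitted ratio 97.6, adjusted p = 1.02e-05), the largest among the genes that passed the rule. Asb4 (chromosome 6, 5383386 to 5433022) encodes a substrate-binding subunit of a ubiquitin ligase and is an imprinted gene, made from 1 parental copy in some tissues. It stood at 0.856, 0.755 and 0.915 CPM in Amhr2+ and at 38.3, 39.3 and 37.8 CPM in Gli1+ cells. Both groups were tight, and the log2 fold change of -5.51 ± 0.11 had an adjusted p of 1.16e-07.

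Promoter sequences are shown for Asb4 and Shisa3 and, at the other end, for the sulfotransferase genes Hs3st3b1 and Hs3st3a1, because Asb4 and Shisa3 were among the most reduced genes and the sulfotransferase genes, related genes of chromosome 11, were both among the 12 leading higher genes. They are the 250 bases before the start site in RefSeq (GRCm38.p6, the assembly called mm10), where 17 of the 24 leading genes had an entry. The lines read 5′ to 3′ in the direction of the gene, and capitals mark CG dinucleotides, the sites of DNA methylation. The windows are chr6:5383136-5383385 (plus strand, the first of 2 Asb4 entries), chr5:67607633-67607882 (plus), chr11:63922285-63922534 (minus) and chr11:64435082-64435331 (plus).
Asb4: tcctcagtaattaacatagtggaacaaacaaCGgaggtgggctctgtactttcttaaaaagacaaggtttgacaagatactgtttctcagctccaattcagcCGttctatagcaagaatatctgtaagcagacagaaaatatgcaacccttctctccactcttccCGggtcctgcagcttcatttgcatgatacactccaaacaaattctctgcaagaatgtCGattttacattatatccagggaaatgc
Shisa3: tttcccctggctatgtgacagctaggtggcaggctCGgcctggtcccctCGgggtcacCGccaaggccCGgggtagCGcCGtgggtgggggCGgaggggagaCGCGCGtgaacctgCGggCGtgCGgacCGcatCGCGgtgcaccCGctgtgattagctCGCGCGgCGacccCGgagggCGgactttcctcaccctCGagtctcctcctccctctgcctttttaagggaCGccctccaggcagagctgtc
Hs3st3b1: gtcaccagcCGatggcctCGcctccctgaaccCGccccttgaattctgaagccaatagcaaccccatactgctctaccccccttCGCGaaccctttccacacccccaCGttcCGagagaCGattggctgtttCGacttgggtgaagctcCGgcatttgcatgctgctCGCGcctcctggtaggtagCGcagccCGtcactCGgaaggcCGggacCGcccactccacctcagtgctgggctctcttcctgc
Hs3st3a1: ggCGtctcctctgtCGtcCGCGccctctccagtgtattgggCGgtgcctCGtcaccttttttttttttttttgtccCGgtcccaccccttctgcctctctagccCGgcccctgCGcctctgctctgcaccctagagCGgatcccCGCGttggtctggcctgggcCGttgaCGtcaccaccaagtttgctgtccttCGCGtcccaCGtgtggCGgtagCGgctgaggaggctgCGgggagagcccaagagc
Asb4 held 4 CG pairs in this window and Shisa3 25, against a median of 6 over all promoters of the table, so these strongly reduced genes differed in CG content. Hs3st3b1 held 17 and Hs3st3a1 20. The letters GACCACCCA (the core of the GLI site) and TATAAA (the TATA box), searched on both strands, were in none of the 4 windows. They are found in 0.225% and 12.4% of the 32851 promoter windows. The other Asb4 entry, further into the gene, held 8 CG pairs and none of these letters.

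Nov, also called Ccn3, encodes a secreted matricellular protein and had 0.544, 0.620 and 0.407 CPM in Amhr2+ against 18.8, 17.7 and 16.6 CPM in Gli1+ cells, a log2 fold change of -5.05 ± 0.17 (adjusted p = 2.17e-06). Dpt (dermatopontin, a matrix protein) fell from 116, 160 and 158 CPM to 9.98, 10.5 and 7.49 CPM, a log2 fold change of -3.95 ± 0.17. Col14a1, a collagen that sits on the surface of collagen fibrils, had 666, 793 and 663 CPM in Gli1+ and 51.7, 51.5 and 53.1 CPM in Amhr2+ cells (-3.76 ± 0.09, adjusted p = 2.45e-07). Aspn (asporin, a small proteoglycan) was lower by -3.86 ± 0.31 but overlaps Cenpp in the table. Ebf3, a transcription factor, had 1.63, 0.971 and 1.53 CPM in Amhr2+ and 24.3, 29.1 and 24.8 CPM in Gli1+ cells, and fell by 4.24 ± 0.19 on the log2 scale. None of these genes overlapped between populations, as the rule required.

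Among the other leading lower genes, Nefm and Nefl, neighbouring genes for neurofilament subunits that overlap in the table and cannot be fully told apart, had log2 fold changes of -4.08 ± 0.33 and -3.73 ± 0.31. Nefm was at 2.96, 2.67 and 1.02 CPM in Amhr2+ and at 31.8, 37.4 and 45.6 CPM in Gli1+ cells. Dsc3, a desmosomal cadherin best known from stratified epithelia, was at 9.96, 11.2 and 7.36 CPM against 161, 122 and 134 CPM (-3.86 ± 0.17). Fmo2, a flavin-containing monooxygenase, and Adgrd1, an adhesion receptor coupled to G proteins, were lower by -4.47 ± 0.28 and -3.84 ± 0.29. For each, all 3 Amhr2+ libraries lay below all 3 Gli1+ libraries, as the rule required.

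Genes that were higher in Amhr2+ cells changed less, and most were already present in Gli1+ cells. Hs3st3b1 and Hs3st3a1 (chromosome 11) encode enzymes that add a 3-O sulfate to heparan sulfate chains. Hs3st3b1 had 25.8, 21.3 and 42.3 CPM in Amhr2+ and 7.18, 4.12 and 5.55 CPM in Gli1+ cells, and its log2 fold change of 2.40 ± 0.31 (adjusted p = 0.00199) was the largest of the higher group. The related Hs3st3a1 rose from 5.33, 4.21 and 4.88 CPM to 14.47, 12.1 and 19.9998 CPM (1.69 ± 0.20). Replicate 3 was the highest Amhr2+ library for both enzymes.

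Several genes for membrane excitability and transport were in this group. Cacna1e, a voltage-gated calcium channel subunit, had 77.4, 91.3 and 62.1 CPM in Amhr2+ and 15.3, 22.5 and 19.99 CPM in Gli1+ cells (1.998 ± 0.18, adjusted p = 0.000339). Grik3, a subunit of kainate-type glutamate receptors, was higher by 2.01 ± 0.21, and Cftr, the chloride channel of cystic fibrosis, by 1.79 ± 0.17. Pde1c, a cyclic nucleotide phosphodiesterase, was higher by 1.63 ± 0.12.

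The group also held 1 chemokine and regulators of development. Sall1, a zinc finger factor of the urogenital system, stood at 163, 150 and 200 CPM in Amhr2+ and at 58.4, 40.7 and 49.3 CPM in Gli1+ cells (1.79 ± 0.15, adjusted p = 0.000255). Cxcl14, a chemokine, had 112, 119 and 103 CPM against 36.3, 30.9 and 31.3 CPM, a log2 fold change of 1.76 ± 0.09. Uph, a long noncoding RNA read from the other strand beside Hand2, was higher by 1.75 ± 0.16. Hand2 itself, a transcription factor of uterine stroma, rose by 1.38 ± 0.14, from 49.7, 35.6 and 44.7 CPM to 119, 123 and 95.5 CPM. The gene bodies of Uph and Hand2 overlap, so their reads cannot be told apart unless strand was used. Samd5 (1.88 ± 0.26), Irs4 (1.58 ± 0.24), an adaptor of insulin-type receptors, and Map2 (1.54 ± 0.10), a microtubule-binding protein, completed the list.

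**Figure D2:**
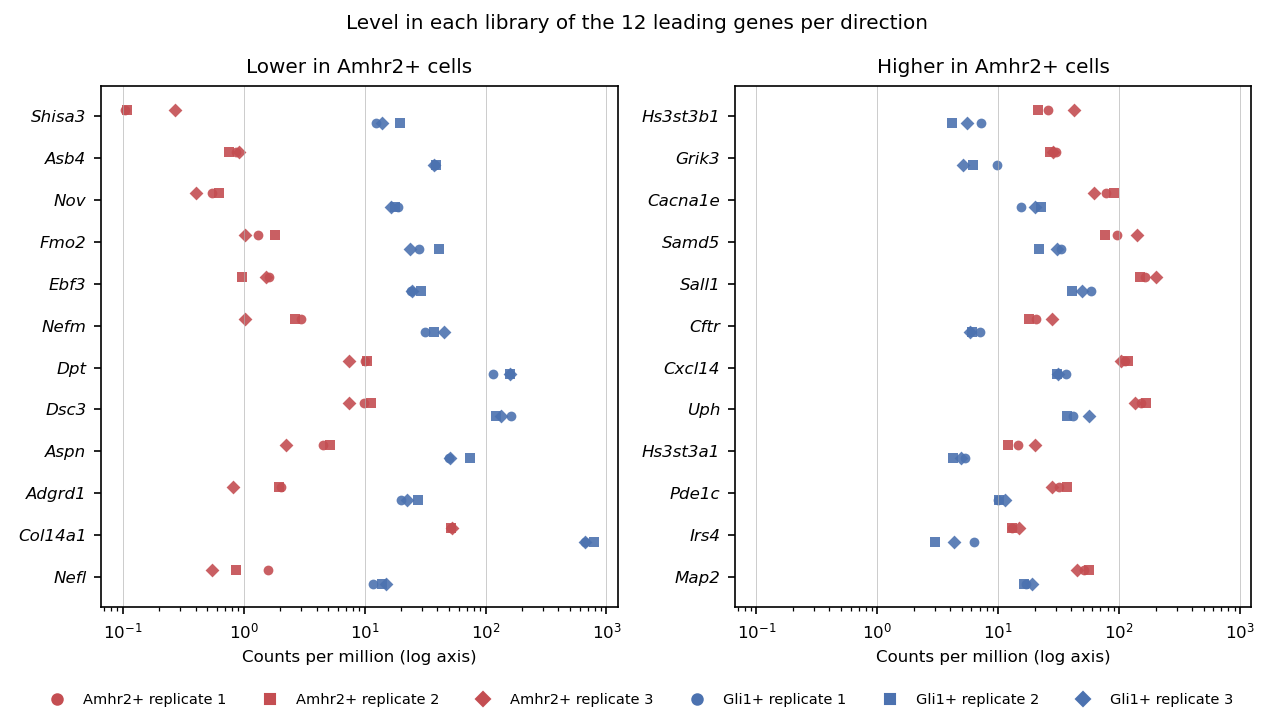
Each row is a gene and each point a library, placed by its CPM on a log axis. Red is Amhr2+, blue is Gli1+, and circle, square and diamond are replicates 1, 2 and 3. By the naming rule, the populations do not overlap for any of the 24 genes. The gap is wider on the left, where Amhr2+ levels of Shisa3 lie near 0.1 CPM.

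Gene lists were then read against the shares called among all genes, 10.1% higher and 13.7% lower. Where edgeR called 0 members of a list in a direction, 0 also had an unadjusted p below 0.05 there and DESeq2 called 0, with exceptions given at each list. Hedgehog ligands, receptors, coreceptors and Gli factors came first. Of 17 members, 11 could be tested: 5 (45.5%) were lower in Amhr2+ cells, 0 higher and 6 were not called. The 5 include Gli1 itself, which marks the Gli1+ population. The median log2 fold change was -0.30. The ligand genes were at or near the limit of detection in both populations, with Shh at 0 counts in all 6 libraries and Ihh at no more than 0.216 CPM. Boc, a coreceptor that binds the ligand, was at 75.3, 81.4 and 67.5 CPM against 171, 176 and 186 CPM (-1.25 ± 0.08), with no overlap. The coreceptor Gas1 (-0.50 ± 0.07) and the factor Gli2 (-0.30 ± 0.05) fell by less, and these 3 calls held in all 13 alternatives.

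The core of the pathway did not pass the test. Ptch1, the main receptor and a direct target, had 31.3, 30.3 and 34.2 CPM in Amhr2+ and 35.3, 39.6 and 33.7 CPM in Gli1+ cells, which overlap (-0.18 ± 0.09, adjusted p = 0.160). The signal transducer Smo (-0.07 ± 0.06), the inhibitor Sufu (-0.08 ± 0.05), the coreceptor Cdon (0.02 ± 0.09) and Gli3 (-0.01 ± 0.07) were not called either. Hhip, a membrane protein that traps the ligand, was at 0.415, 0.243 and 0.576 CPM in Amhr2+ cells. In Gli1+ cells it was at 2.65 and 2.07 CPM in replicates 1 and 2 but at 0.271 CPM in replicate 3. Without that library, 8 members were called lower, Hhip among them.

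Fibroblast and matrix genes gave the broadest difference. These lists are not separate from each other or from the leading genes: Col15a1 is in both the fibroblast and collagen lists. Col14a1 is counted among the collagens and Nov among the other matrix genes. Of 21 fibroblast genes tested, 12 (57.1%, against 13.7% of all genes) were lower in Amhr2+ cells and 0 higher. Their median log2 fold change was -0.85. The same count of 12 lower came from every alternative. At an unadjusted p below 0.05, 1 was higher, and 2 were called higher without Amhr2+ replicate 3. Dcn (decorin, a proteoglycan of collagen fibrils) had 467, 488 and 468 CPM in Amhr2+ and 1276, 1576 and 1293 CPM in Gli1+ cells (-1.54 ± 0.09, adjusted p = 2.19e-05). Fap, a cell surface protease of activated fibroblasts, was lower by -1.65 ± 0.10 and Ogn by -1.73 ± 0.13. Cd34 (-0.90 ± 0.11) and Lum (-1.12 ± 0.13) were also lower. The general mesenchymal receptors Pdgfra and Pdgfrb did not pass the test, with differences of 0.04 ± 0.08 and 0.01 ± 0.06, at 519 to 621 and 492 to 518 CPM over the 6 libraries.

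Collagens followed: 16 of 25 tested were lower and 3 higher, with a median of -0.68, and 16 to 18 were lower in the alternatives. Without Amhr2+ replicate 1 or Gli1+ replicate 3, 1 was higher. Col1a1, Col1a2 and Col3a1, the fibrillar collagens of connective tissue, took 2.55% to 2.74% of all counts in Amhr2+ and 5.03% to 5.88% in Gli1+ libraries. Col1a2 was lower by -1.75 ± 0.07, Col1a1 by -0.98 ± 0.06 and Col3a1 by -0.79 ± 0.07. Col5a3 (-2.78 ± 0.29) and Col12a1 (-2.11 ± 0.09) changed more. Against this direction, Col4a5, of the basement membrane, was higher by 0.36 ± 0.07 and held in all alternatives.

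Of 33 other matrix genes tested, 22 were lower and 4 higher, with a median of -0.66. Thbs2, a matricellular thrombospondin, was at 19.55, 22.2 and 10.5 CPM in Amhr2+ and at 186, 214 and 154 CPM in Gli1+ cells (-3.40 ± 0.29, adjusted p = 0.000779). Tnxb (tenascin X) was lower by -2.33 ± 0.21, Matn2 (matrilin) by -1.83 ± 0.09 and Adamts1, a matrix protease, by -1.68 ± 0.12. Lox (-1.17 ± 0.18) and Loxl1 (-0.68 ± 0.06), which cross-link collagen and elastin, and elastin itself (Eln, -0.78 ± 0.07) were lower too. The higher members that held in all alternatives were Vcan (versican, 0.79 ± 0.11), Mmp2 (a gelatinase, 0.48 ± 0.10) and Timp3 (a protease inhibitor, 0.42 ± 0.06). Vcan reached 2195, 2037 and 2730 CPM in Amhr2+ against 1385, 1260 and 1387 CPM in Gli1+ cells. So the matrix lists were not lower as a whole, although lower calls, at 64.0% of collagens and 66.7% of the other genes, were well above the 13.7% among all genes.

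**Figure D3:**
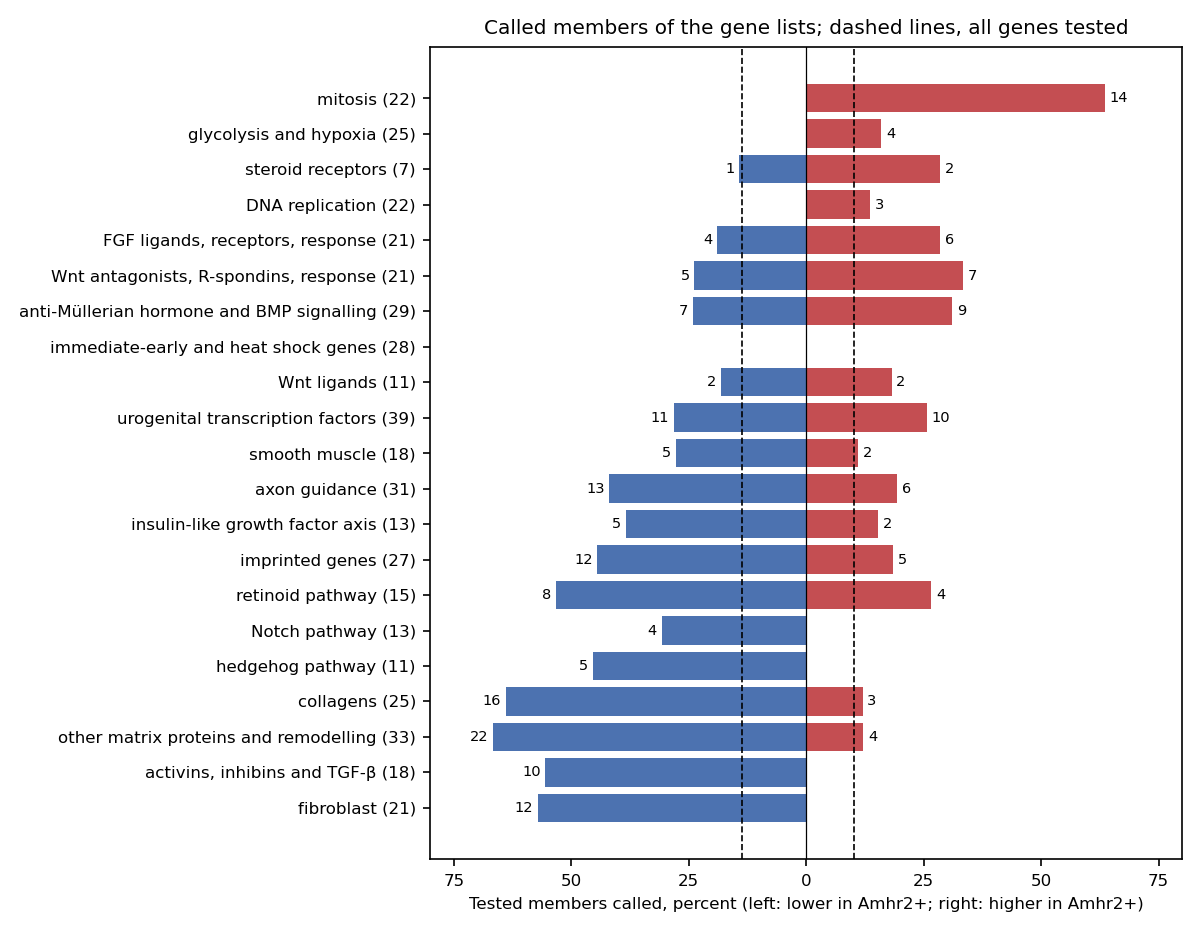
Bars give the percentage of tested members of each list that were called lower (blue, left) or higher (red, right) in Amhr2+ cells, with the number of genes at the bar ends and the number tested in parentheses. Dashed lines mark the 13.7% and 10.1% among all genes. Marker lists of other cell types are not drawn. Of the lists drawn, lower calls exceed the line most for the fibroblast, collagen and matrix lists, and higher calls for mitosis.

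In the anti-Müllerian hormone and BMP list, members moved both ways: 9 of 29 were higher, 7 lower and 13 not called, with a median of 0.08. The 9 include Amhr2 itself, which marks the Amhr2+ population. Higher calls were 31.0% and lower calls 24.1%, against 10.1% and 13.7% among all genes. The ligand genes Bmp2 and Bmp7 were higher in Amhr2+ cells, Bmp2 with 31.9, 32.6 and 29.5 CPM against 15.4, 15.5 and 15.9 CPM (1.01 ± 0.08, adjusted p = 8.53e-05) and Bmp7 by 1.06 ± 0.10. Bmp4 (-1.06 ± 0.17) and Bmp5 (-2.52 ± 0.27) were lower. The intracellular mediators Smad1 (0.39 ± 0.06) and Smad5 (0.50 ± 0.08), shared by BMPs and anti-Müllerian hormone, were higher, while the receptor Bmpr1b was lower by -1.40 ± 0.12. Among secreted antagonists, Nog (-1.50 ± 0.20) and Chrd (-0.79 ± 0.10) were lower and Chrdl1 was higher (0.90 ± 0.13). Bambi, a decoy receptor, and Id4, a target gene, were lower by -1.17 ± 0.08 and -0.79 ± 0.08.

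The activin and TGF-β list went 1 way. Of 18 members, 10 (55.6%, against 13.7% of all genes) were lower and 0 higher, with a median of -0.42. Of the lower calls, 7 held in all alternatives. Without Amhr2+ replicate 3, 1 member was called higher. Inhba, which encodes an activin subunit, had 50.3, 53.7 and 39.3 CPM in Amhr2+ and 94.3, 83.3 and 99.9 CPM in Gli1+ cells (-0.95 ± 0.12, adjusted p = 0.00109). The receptors Tgfbr2 (-0.56 ± 0.06) and Tgfbr3 (-0.85 ± 0.09) and the latent TGF-β binding proteins Ltbp2 (-1.87 ± 0.29) and Ltbp4 (-0.49 ± 0.07) were lower. Fstl1, a secreted protein related to follistatin, was lower by -0.48 ± 0.06.

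Wnt ligand genes were called in both directions, 2 higher and 2 lower of 11 tested. Each count is 18.2%, against 10.1% higher and 13.7% lower among all genes. Wnt5a, a ligand needed for growth of the uterus and its glands, was at 710, 716 and 661 CPM in Amhr2+ and at 475, 415 and 446 CPM in Gli1+ cells (0.64 ± 0.07, adjusted p = 0.000463). Wnt2 was higher by 1.18 ± 0.22, while Wnt11 (-1.11 ± 0.16) and Wnt5b (-0.54 ± 0.09) were lower. Wnt4, which is required for the Müllerian duct to form, was not called (0.10 ± 0.06). Of 21 antagonists, R-spondins and response genes, 7 (33.3%) were higher and 5 (23.8%) lower. Axin2, a feedback gene of the β-catenin pathway, had 369, 381 and 358 CPM against 240, 218 and 272 CPM (0.60 ± 0.08, adjusted p = 0.00157). Other response genes were also higher: Nkd2 (0.75 ± 0.07), Tcf7 (0.76 ± 0.12) and Lgr5 (1.95 ± 0.33, at 0.998 to 1.73 CPM in Amhr2+ cells). The secreted antagonists Sfrp1 (-1.01 ± 0.08), Sfrp2 (-0.43 ± 0.09) and Sfrp4 (-0.73 ± 0.08) were lower, as was Rspo3, a Wnt amplifier, at 18.8, 19.52 and 18.0 CPM against 59.5, 76.6 and 58.4 CPM (-1.79 ± 0.11).

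FGF genes gave 6 higher and 4 lower calls of 21. The transcription factor genes Etv1 (0.81 ± 0.15), Etv4 (1.75 ± 0.28) and Etv5 (0.70 ± 0.13), which FGF signalling induces, were all higher in Amhr2+ cells. Etv4 stood at 6.66, 5.15 and 10.3 CPM against 2.56, 1.73 and 2.23 CPM (adjusted p = 0.003). Fgf7, a stromal growth factor for epithelium, was lower, with 1.58, 1.97 and 1.42 CPM against 6.34, 8.64 and 8.23 CPM (-2.21 ± 0.19), and Fgfr1 was lower by -0.34 ± 0.07. The remaining FGF calls were each lost in at least 1 alternative. Without Amhr2+ replicate 1, 3 were higher and 2 lower, and without Amhr2+ replicate 3, 2 were lower.

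In the insulin-like growth factor list, 2 of 13 genes (15.4%) were higher and 5 (38.5%) lower, against 10.1% and 13.7% among all genes. Pappa and Pappa2, proteases that free the growth factors by cutting their binding proteins, were lower by -2.40 ± 0.09 and -1.64 ± 0.11. Pappa had 9.07, 9.33 and 8.10 CPM in Amhr2+ and 44.7, 48.5 and 46.9 CPM in Gli1+ cells (adjusted p = 2.65e-06). The binding protein Igfbp3 (0.86 ± 0.07) and the protease Htra1 (0.94 ± 0.13) were higher, and Igf2 was lower by -0.43 ± 0.09. Igf1 was at 1281, 1469 and 833 CPM against 1929, 1848 and 2081 CPM (adjusted p = 0.0356), a call that was lost without Amhr2+ replicate 1 or without any 1 of the Gli1+ libraries.

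Of 7 genes of the steroid receptor list, 2 (28.6%) were higher and 1 (14.3%) lower, the latter near the 13.7% of all genes. Under scaling by library size alone, 4 were higher. Greb1, an oestrogen target, was higher by 0.63 ± 0.12. Esr1, the main oestrogen receptor of the uterus, was higher by 0.29 ± 0.07, at 467, 478 and 430 CPM against 403, 373 and 349 CPM, but lost its call without Amhr2+ replicate 1, Amhr2+ replicate 2 or Gli1+ replicate 3. The progesterone receptor gene Pgr was not called (0.23 ± 0.09). In the retinoid list, 4 of 15 genes (26.7%) were higher and 8 (53.3%) lower. Rdh10 (1.05 ± 0.17) and Aldh1a3 (1.05 ± 0.18), enzymes of retinoic acid synthesis, and Stra6 (0.69 ± 0.09), a retinol importer, were higher. The plasma carrier gene Rbp4 (-1.59 ± 0.25) and the receptor genes Rarb (-0.57 ± 0.11) and Rxra (-0.56 ± 0.08) were lower. Without Amhr2+ replicate 1, 4 retinoid genes were called lower, and without Gli1+ replicate 3, 5. Notch genes gave 4 lower (30.8%) and 0 higher calls of 13. They were led by the target Heyl (-1.34 ± 0.16) and the receptors Notch3 (-0.68 ± 0.08) and Notch2 (-0.42 ± 0.08).

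Transcription factors of the urogenital tract divided evenly, with 10 of 39 tested higher and 11 lower, or 7 lower without Amhr2+ replicate 1. The shares were 25.6% and 28.2%, against 10.1% and 13.7% among all genes. Among the lower ones, Tbx18, a T-box factor of urogenital mesenchyme, gave 4, 4 and 1 reads in Amhr2+ cells (0.104, 0.108 and 0.0339 CPM) and 6.37, 8.30 and 3.26 CPM in Gli1+ cells (adjusted p = 0.000147). Gata6 had 9.33, 8.85 and 7.63 CPM against 43.8, 50.4 and 40.7 CPM (-2.38 ± 0.11), and Msx1 was lower by -1.61 ± 0.21. Tcf21 (-0.62 ± 0.10) and Zeb2 (-0.57 ± 0.06) were lower by less. Nr2f1, a nuclear receptor, had 23.6, 25.9 and 8.88 CPM against 66.2, 75.04 and 72.1 CPM (-1.86 ± 0.39), but lost its call without Amhr2+ replicate 1 or without Gli1+ replicate 2.

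Higher factors beside Hand2 and Sall1 included Tshz3, with 319, 330 and 258 CPM in Amhr2+ and 137, 94.9 and 142 CPM in Gli1+ cells (1.28 ± 0.16, adjusted p = 0.00177), and Wt1, with 253, 237 and 279 CPM against 138, 142 and 142 CPM (0.87 ± 0.07). Wt1 marks mesenchyme that arises from the coelomic lining. Emx2 (0.32 ± 0.10) was also called higher, a call lost when any library except Amhr2+ replicate 3 was left out. The Müllerian patterning genes Hoxa10 (0.30 ± 0.10) and Hoxa11 (-0.03 ± 0.10) were not called.

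Of the Hox genes of the D cluster, 7 were called higher and 2 were not called. Among all genes tested, 10.1% were called higher. Hoxd9, Hoxd10 and Hoxd11 belonged to the factor list, and Hoxd1, Hoxd3, Hoxd4 and Hoxd8 were added after their values were seen. The count over the cluster was thus not set in advance. Hoxd10 had 226, 226 and 222 CPM in Amhr2+ and 128, 128 and 122 CPM in Gli1+ cells (0.84 ± 0.05, adjusted p = 3.35e-05). The log2 fold changes of Hoxd3, Hoxd4, Hoxd8, Hoxd9 and Hoxd11 were 1.10 ± 0.12, 0.76 ± 0.13, 0.51 ± 0.07, 0.71 ± 0.07 and 0.88 ± 0.18, each called in all alternatives. Hoxd1 was at 0.566 to 1.25 CPM in Amhr2+ cells and its call was lost without Amhr2+ replicate 1 or 3 and without Gli1+ replicate 1 or 2. At the other end of the cluster, Hoxd12 (-0.35 ± 0.20) and Hoxd13 (-1.60 ± 0.51, adjusted p = 0.0511) were below 0 and not called. Several noncoding genes overlap this cluster, so single values are uncertain.

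Imprinted genes gave 12 lower and 5 higher calls of 27, and neighbours of Asb4 were among the lower ones. Peg10 (chromosome 6, 4747306 to 4760517), a gene derived from a retrotransposon, had 61.3, 51.8 and 85.0 CPM in Amhr2+ and 304, 380 and 345 CPM in Gli1+ cells (-2.38 ± 0.19, adjusted p = 0.000219). Sgce, which starts 0.099 kb from Peg10 on the other strand, was lower by -0.79 ± 0.08. Ppp1r9a was lower by -0.44 ± 0.12, a call lost without any 1 of Amhr2+ replicates 1 and 2 and Gli1+ replicates 2 and 3, and under scaling by library size alone. Pon3 (-1.34 ± 0.13) and Pon2 (-0.53 ± 0.11) lie between Ppp1r9a and Asb4 and were named after their values were seen. The call of Pon2 was lost without Amhr2+ replicate 1. Genes on both sides, Casd1 (-0.04 ± 0.08) and Pdk4 (-0.27 ± 0.18), were not called, while Col1a2, Gng11 (-0.72 ± 0.14) and Tfpi2 (-1.80 ± 0.19), on the side of Casd1 and further out, were lower.

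Other imprinted genes went in both directions. Nnat, a membrane protein gene of neuroendocrine tissue, was higher, at 86.0, 76.2 and 109 CPM against 27.4, 29.8 and 40.7 CPM (1.47 ± 0.18, adjusted p = 0.00159). Zdbf2 was higher by 0.72 ± 0.12. Dlk1, a secreted inhibitor of differentiation (-0.67 ± 0.10), the cell cycle inhibitor Cdkn1c (-0.48 ± 0.06), Gnas (-0.62 ± 0.07) and Ndn (-0.47 ± 0.08) were lower. The share of lower calls, 44.4%, was above the 13.7% among all genes, and 8 of the 12 held in all alternatives. Higher calls were 18.5%, against 10.1% among all genes. They numbered 3 when Amhr2+ replicate 1 was left out and 2 when Gli1+ replicate 1 was.

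**Figure D4:**
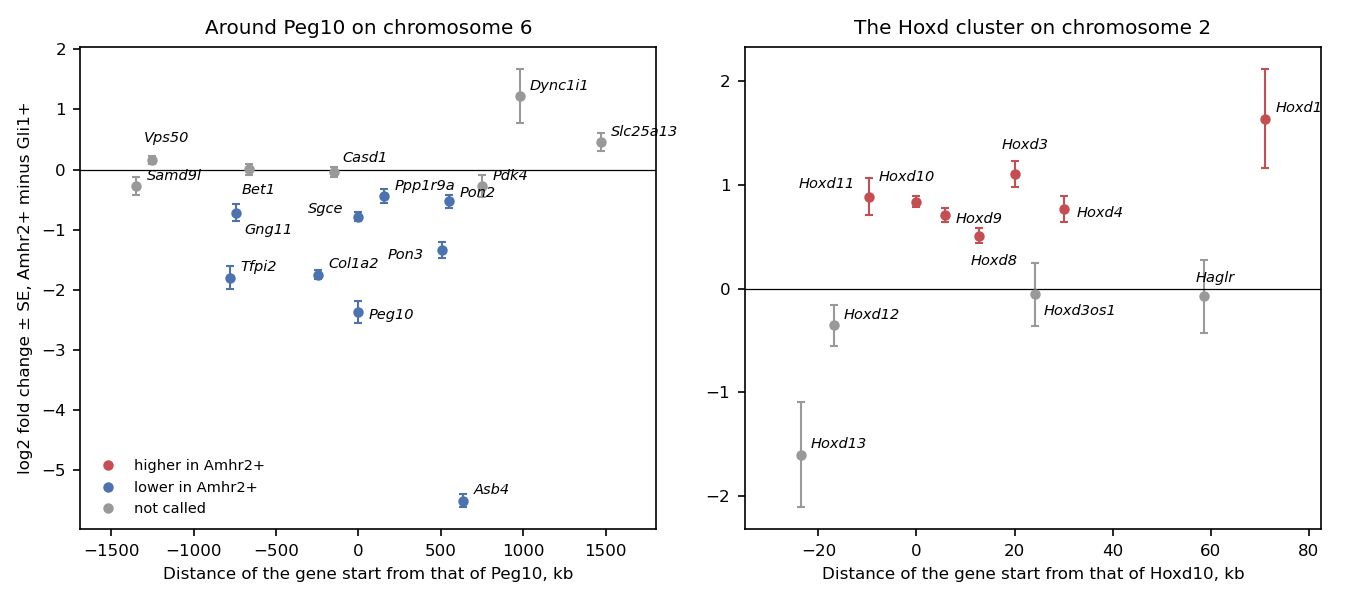
Points are log2 fold changes, Amhr2+ minus Gli1+, with their standard errors, against the distance of each gene's start from that of Peg10 (left) or Hoxd10 (right) in kb. Clone-named genes are left out. Left, called genes are all below 0, with Asb4 at -5.51. Right, the genes from Hoxd11 to Hoxd1 are above 0 except 2 noncoding genes, and Hoxd12 and Hoxd13 are below it.

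Axon guidance genes, many of which also steer mesenchyme and vessels, gave 13 lower and 6 higher calls of 31. These are 41.9% and 19.4%, against 13.7% and 10.1% among all genes. Receptor genes Robo1 (0.85 ± 0.06) and Robo2 (0.88 ± 0.10) were higher in Amhr2+ cells, Robo1 at 320, 314 and 346 CPM against 185, 178 and 179 CPM. Their ligand genes Slit2 (-0.76 ± 0.07) and Slit3 (-1.50 ± 0.09) were lower. Epha3, an ephrin receptor, fell from 56.2, 67.4 and 54.4 CPM to 5.73, 6.12 and 5.29 CPM (-3.37 ± 0.11, adjusted p = 2.17e-06). Unc5c (-2.93 ± 0.12), a netrin receptor, Nrp2 (-2.81 ± 0.11), a semaphorin coreceptor, and Plxnc1 (-1.69 ± 0.08) were also lower. Epha7 (0.78 ± 0.07) and Sema3a (0.72 ± 0.08) were higher.

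Smooth muscle genes were called in both directions. Of 18, 2 were higher (11.1%, near the 10.1% of all genes) and 5 lower (27.8%, against 13.7%). The median was -0.30, with 15 estimates below 0. Synm and Synpo2, for proteins that anchor the contractile cytoskeleton, were higher by 1.10 ± 0.14 and 0.56 ± 0.10. Actg2, the actin of visceral muscle, was at 6.59, 9.14 and 4.47 CPM against 22.9, 27.95 and 19.54 CPM (-1.79 ± 0.25), and Myl9 was lower by -0.66 ± 0.14. Acta2 was at 876, 1026 and 605 CPM against 1377, 1308 and 1426 CPM (adjusted p = 0.0242), and its call was lost without Amhr2+ replicate 1 or without any 1 of the Gli1+ libraries. Myh11, the heavy chain of smooth muscle myosin, was at 93.2, 112 and 46.5 CPM against 184, 192 and 122 CPM and was not called (adjusted p = 0.112). The count of lower calls ranged from 2, without Amhr2+ replicate 1 or without Gli1+ replicate 1, to 9 with DESeq2, and 10 were lower at an unadjusted p below 0.05.

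Genes of mitosis were higher in Amhr2+ cells by small amounts. Of 22 genes, 14 (63.6%) were higher and 0 lower, with a median log2 fold change of 0.37, and all 22 estimates were above 0. Mki67, made in dividing cells, had 459, 433 and 542 CPM in Amhr2+ and 344, 316 and 377 CPM in Gli1+ cells (0.47 ± 0.10, adjusted p = 0.0112). Cenpe, a kinesin of the kinetochore, was higher by 0.52 ± 0.10, and Bub1, a checkpoint kinase, by 0.55 ± 0.13. These calls, with that of Cenpa, held in all alternatives. The count itself was unstable: 4 without Gli1+ replicate 1, 6 without Amhr2+ replicate 1, and 7 without Amhr2+ replicate 3 or Gli1+ replicate 2. Genes of DNA replication gave 3 higher and 0 lower calls of 22, near the 10.1% of all genes, and 1 to 11 in the alternatives. That count fell to 1 on leaving out Amhr2+ replicate 1, Amhr2+ replicate 3, Gli1+ replicate 1 or Gli1+ replicate 2. Prim1, a subunit of the DNA primase, was higher by 0.38 ± 0.08 in all.

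The replicates themselves differed in several lists, and 2 of these are described here. Immediate-early and heat shock genes, which respond within minutes to dissociation or other stress, summed to 7496, 7458 and 9098 CPM in Amhr2+ and to 10887, 3059 and 19627 CPM in Gli1+ libraries. The Gli1+ libraries thus lay on both sides of the Amhr2+ libraries. By edgeR's test 0 of 28 were called, 0 had an unadjusted p below 0.05, and DESeq2 called 1, Klf2. Without Gli1+ replicate 2, 9 were called lower, among them Fos, Jun and Klf2, and without Gli1+ replicate 3, 2 were called higher. Fos was at 652, 673 and 868 CPM against 1407, 206 and 2853 CPM. Glycolysis and hypoxia genes gave 4 higher calls of 25 (16%, against 10.1% of all genes). These calls were led by Hk2 (0.42 ± 0.07) and Vegfa (0.35 ± 0.07), and 2 of the 4 held in all alternatives. The count was 16 without Amhr2+ replicate 3. Leaving out Amhr2+ replicate 1 gave 2 calls, and 9 were made under scaling by library size alone. In the other direction, 2 had an unadjusted p below 0.05. Their sums were 4697 and 4827 CPM in Amhr2+ replicates 1 and 2 but 3800 CPM in replicate 3, inside the Gli1+ range of 3713 to 3928 CPM.

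**Figure D5:**
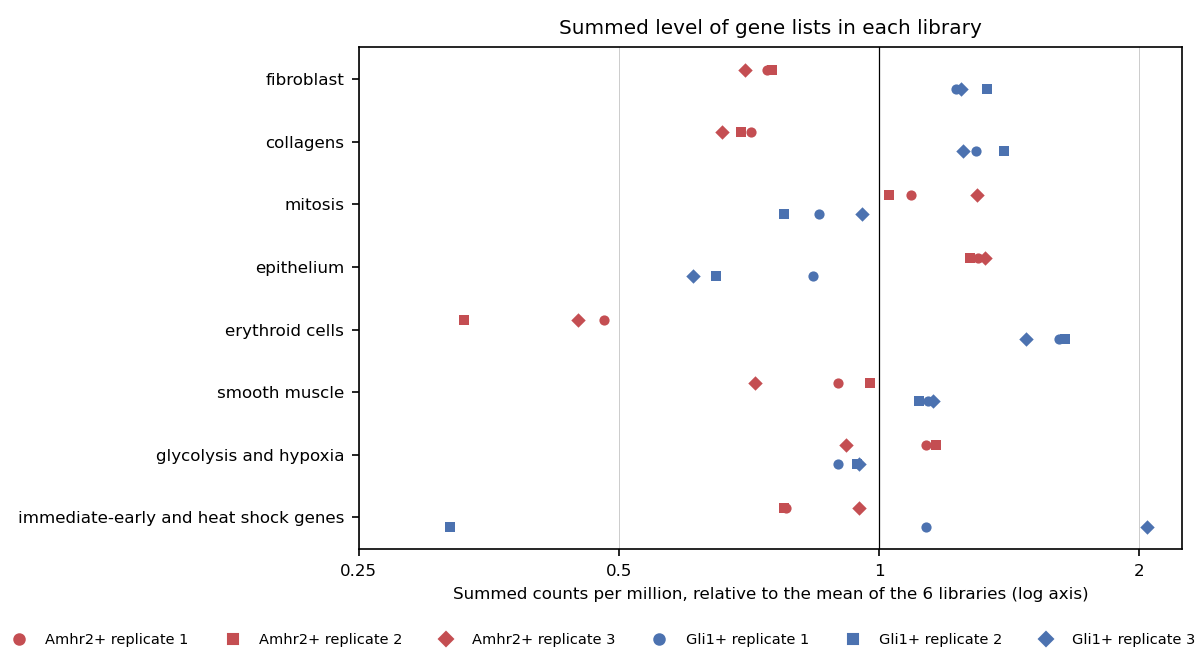
Each point is the summed CPM of a list in 1 library, divided by its mean over the 6 libraries, on a log axis. Red is Amhr2+, blue is Gli1+, and circle, square and diamond are replicates 1, 2 and 3. Fibroblast and collagen sums separate the populations, whereas the immediate-early sums of the Gli1+ libraries range from 3059 to 19627 CPM.

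Markers of other cell types were measured in the same libraries. Epithelial genes summed to 79.6 to 82.9 CPM in Amhr2+ and to 38.02 to 52.3 CPM in Gli1+ cells. Of 13, 4 (30.8%, against 10.1% of all genes) were higher: Krt8 (1.20 ± 0.17), Krt18 (1.21 ± 0.14), Krt19 (0.78 ± 0.14) and Epcam (1.08 ± 0.30). Keratins of this kind also occur in mesothelium and some mesenchyme. The call of Epcam was lost without Amhr2+ replicate 1 or 3 or Gli1+ replicate 2 or 3. The defining gene Cdh1 stood at 1.56, 1.56 and 2.41 CPM against 1.97, 0.712 and 0.995 CPM and was not called, and Pax8 stayed below 0.6 CPM throughout. Mesothelial genes gave 1 higher call of 10, a share near the 10.1% of all genes. It was Krt19 again, with overlapping sums, and 4 were higher without Gli1+ replicate 2. In the other direction, 1 had an unadjusted p below 0.05.

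Erythroid and nerve markers were low, the nerve and glia list at 18.6 to 28.0 CPM in Amhr2+ and 16.7 to 21.5 CPM in Gli1+ libraries. Immune genes summed to 48.4 to 88.3 CPM in Amhr2+ and to 27.6 to 90.7 CPM in Gli1+ libraries. Pericyte genes were not low, with sums of 495 to 693 CPM in Amhr2+ and 664 to 881 CPM in Gli1+ libraries. The 3 haemoglobin genes tested, of 9 erythroid markers, were lower in Amhr2+ cells, where the list summed to 1.75 to 2.54 CPM against 7.84 to 8.70 CPM. Endothelial genes summed to 73.2 to 77.7 against 79.4 to 93.0 CPM. Of 10 tested, 4 (40.0%, against 13.7% of all genes) were lower, of which Tek (-1.71 ± 0.25) held in all alternatives. The defining genes Pecam1 and Cdh5 were below 1.5 CPM in each library. The endothelial count was 1 without Amhr2+ replicate 1 and 2 without any 1 of the other Amhr2+ libraries, Gli1+ replicate 1 or Gli1+ replicate 3. Immune genes gave 1 lower call of 11, pericyte genes 1 higher and 1 lower of 8, and skeletal muscle and fat genes 0 of 4 and 0 of 1. Without Gli1+ replicate 3, 2 skeletal muscle genes were called lower. The single immune call, Mrc1, was lost without any 1 of the Amhr2+ libraries or without Gli1+ replicate 1 or 2. S100b was the 1 call of 6 nerve and glia genes, at 4, 1 and 0 reads in Amhr2+ and 1.28, 1.73 and 1.12 CPM in Gli1+ cells, while Sox10 had at most 0.181 CPM. Another gene of this list was higher at an unadjusted p below 0.05. Whether such cells had a part in the differences above was not tested.

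Of the gonadal markers, 3 of 11 germ cell genes and 5 of 10 ovarian genes had enough reads to be tested. Ddx4, an RNA helicase known from germ cells, had 0.622, 0.863 and 0.339 CPM in Amhr2+ and 6.02, 6.47 and 5.13 CPM in Gli1+ cells (-3.24 ± 0.28, adjusted p = 0.000157), while Dazl, made in the same cells, had at most 0.181 CPM in any library. Among the other germ cell genes tested, Tdrd1 was called higher (1.25 ± 0.32), and this was lost without Amhr2+ replicate 3, Gli1+ replicate 1 or Gli1+ replicate 2. Of the ovarian genes, which summed to 85.7 to 138 CPM in Amhr2+ and to 80.1 to 92.1 CPM in Gli1+ cells, Lhx9 was lower, at 0, 0.162 and 0.102 CPM against 1.94, 1.83 and 0.905 CPM. Foxl2 was at 112, 118 and 68.6 CPM against 62.9, 64.0 and 59.8 CPM, and its call (adjusted p = 0.0392) was lost when any library except Amhr2+ replicate 3 was left out.

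Because Cre and CreER came from different loci, genes next to each locus were counted. Within 1 Mb of Amhr2, 11 of 48 tested genes were called (22.9%), and within 10 Mb 30 of 160 (18.8%). Near Gli1 the counts were 12 of 57 (21.1%) and 27 of 123 (21.95%). These shares were near the 23.9% of all genes.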

How the data were processed

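Gene counts of 6 uterine RNA-seq libraries were used as deposited by the authors, with 1 column per library and 41442 gene rows, of which 64 repeat a symbol. Per the labels' protocols, RNA was isolated with the PicoPure kit and libraries were made with the TruSeq Stranded mRNA kit. The submitters' processing notes name STAR 2.5, featureCounts of Subread 1.5.0-p1 and mm10, with no roles, and the use of strand in counting is not given in the sources used here, so genes that overlap another are uncertain. A count table of fetal Gli1+ cells, also deposited by the authors, was used for levels only. Open-chromatin data were not used here.

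Groups came from the sample titles. Genes were kept by filterByExpr, libraries scaled by TMM, and Amhr2+ tested against Gli1+ by edgeR 4.0.16 (R 4.3.3) with its robust quasi-likelihood test, with Benjamini-Hochberg adjustment over 16195 genes and a threshold of 0.05. CPM are counts scaled to 1000000 per TMM-scaled library. Standard errors are the log2 fold change, without sign, over the square root of its F statistic. A total of 3 counts, the limit of detection taken here, was 0.0778 to 0.102 CPM, which covers counting error only. Replicate libraries were compared by chi-square over genes with at least 20 reads in the pair.

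By the naming rule, the 12 genes of largest log2 fold change per direction were taken among those called, at 10 CPM or more on average in the group with more RNA, no overlap of CPM, a call that held without each library in turn, and a symbol that is not clone-based. Names starting RP23- or RP24- were also taken as clone-based, which was added after values were seen. Members of fixed lists were summarised by counts, with those of large or stable change named. Genes and lists were chosen with earlier results of these data known. A few members of these lists are counted but not reported here. The steps were tested on simulated counts. Alternatives were library size or RLE scaling, DESeq2 1.42.0, no or a stricter count filter (1 CPM in 3 libraries), a replicate block, leaving out each library, and, chosen after seeing the data, summing Amhr2+ replicates 1 and 2. Promoter windows came from RefSeq, GRCm38.p6, matched by symbol.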

Additional observations from a re-analysis of the deposited data

How the results depend on the processing

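Of 540 named or listed genes with 6982 values over 13 alternatives, 6461 values stayed on the same side of the threshold. For values not called in either fit, direction was not compared. A call was lost in 339 values and gained in 182, and 0 changed direction where either fit made a call. Counts of calls moved more. Scaling by library size alone gave 2849 higher genes, where TMM gave 1642, and moved the median of all genes by 0.08. DESeq2 called 4294 genes. Leaving out single libraries gave 1949 to 3521 called genes, 713 to 1476 higher, 1236 to 2045 lower and 830 to 1137 called at least 2-fold. With Amhr2+ replicates 1 and 2 summed, which was chosen after seeing the data and leaves 5 libraries, 2425 genes were called, 947 higher and 1478 lower. With the replicate block 4725 genes were called, 2157 higher and 2568 lower, but the pairing by number is not stated: deviations of same-numbered libraries correlated at 0.0018, 0.22 and 0.24, and Amhr2+ replicate 1 was closest to Gli1+ replicate 2 (0.13). The limit of detection, 0.0778 to 0.102 CPM, bears on Shisa3, Tbx18, S100b and Lhx9, whose Amhr2+ levels lay near it.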

Other observations

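The leading genes were also read in the fetal Gli1+ table, as a description with no test: those libraries hold female mesonephros cells, came from a kit that does not keep strand and were scaled among themselves, so levels cannot be set against the uterine ones. Each mean is over 3 libraries with its SD. Most leading genes that were low in uterine Amhr2+ cells were higher in fetal Gli1+ cells at E16.5 than at E14.5. The share of all genes that rose was not counted, so this is not shown to be particular to them. Among lower matrix genes outside the leading set, Lox and Eln also rose, whereas Col12a1 fell. Dpt stood at 5.38 ± 0.21 CPM at E14.5 and 91.1 ± 5.66 CPM at E16.5, Dsc3 at 17.8 ± 1.60 and 107 ± 8.83 CPM, and Col14a1 at 462 ± 9.85 and 1088 ± 59.0 CPM. Ebf3 stood at 1.92 ± 0.45 and 22.8 ± 2.32 CPM. Asb4 was an exception, with 31.0 ± 1.12 and 26.0 ± 0.57 CPM.

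Genes that were high in uterine Amhr2+ cells had mixed fetal levels. Cxcl14 was at 0.595 ± 0.179 CPM at E14.5 and 2.60 ± 0.31 CPM at E16.5, and Cacna1e at 2.45 ± 0.41 and 2.19 ± 0.13 CPM. Samd5 was at 75.9 ± 8.33 and 38.6 ± 6.03 CPM, Map2 at 20.04 ± 1.31 and 9.63 ± 0.44 CPM, and Sall1 at 9.35 ± 1.43 and 14.2 ± 2.996 CPM. Ddx4, which was detected in uterine Gli1+ cells, was at 0.549 ± 0.138 and 0.577 ± 0.132 CPM.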
